A study of Bos taurus with 12 samples.

Results

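The collagens II, IX, XI and XXVII form the fibril network of cartilage, and their transcripts were read here by 16 probe sets out of the 24016 on the array that are not controls. The members were all probe sets whose gene symbol in the platform annotation was COL2A1, COL9A1, COL9A2, COL9A3, COL11A1, COL11A2 or COL27A1, each kept separately. COL2A1 had 4 probe sets, COL9A1 had 2, COL11A1 had 7, COL11A2 had 1 and COL27A1 had 2. Of the 7 genes 5 were covered, and COL9A2 and COL9A3, which encode the other chains of collagen IX, were not analysed here. The samples were growth plate chondrocytes of male dairy cattle, less than 10 months old, from the distal metacarpus. A collagenase digestion of 4 hours freed the cells and a density gradient parted them, so that a zone is defined by cell density. The lightest cells were taken as hypertrophic zone (HZ) and the heaviest as reserve zone (RZ), with 6 arrays of each in pairs numbered 1 to 6. The labels call the pairs independent without saying whether each came from 1 animal, so a p-value here weighs a difference against the spread among these pairs, which may be technical.

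Collagen II is a homotrimer of the COL2A1 chain and makes up the bulk of the cartilage fibril. Collagen XI, assembled from the COL11A1 and COL11A2 chains and a product of COL2A1, lies within the fibril and limits its width. Collagen IX coats its surface and links it to other matrix proteins. Collagen XXVII is a fibrillar collagen of developing cartilage that is found where cartilage turns into bone. Transcription of these genes depends on SOX9 with SOX5 and SOX6, and hypertrophic chondrocytes are known to exchange this matrix for one rich in collagen X.

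Values are signals recovered from the deposited ratios, scaled so that all arrays have nearly the same median, and they are not comparable between probe sets. A log2 difference is HZ minus RZ of log2(signal + 16). In bulk RNA, fewer cells of a type and less RNA per cell cannot be told apart. A probe set passed when its limma p, adjusted by Benjamini-Hochberg over all 24016 probe sets with the pair as a block, was under 0.05. By this rule 3.26% of all probe sets were higher in HZ and 2.96% were lower, 6.22% together. Pairs 1 and 2 differ from pairs 3 to 6 in the step of the deposited values and in brightness. They are called batches here, although no label names one, and differences are also given within each.

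Marker genes of both zones differed between the fractions. Of 6 hypertrophic markers 5 passed as higher in HZ, and all 4 reserve zone markers passed as lower. In the 6 fits that each left out a pair, IHH, MMP13, PTH1R, MEF2C, SFRP5 and CLU passed 6 times. APOE passed 3 times there, and ALPL and PTHLH 1 time each. The hypertrophic marker COL10A1 did not pass, at 0.11 ± 0.16 (SE, limma adjusted p = 0.755). It lay at rank 5 by mean level, among the 100 brightest probe sets, of which 2 passed. Of the chondrocyte markers, ACAN, HAPLN1 and COMP were among the brightest probe sets, at ranks 33, 39 and 15 by mean level, and did not pass. MATN1, at rank 12960, passed as lower in HZ, and SOX9 was not analysed here. Some markers of other cell types also differed. Among 5 macrophage markers C1QA, C1QB and CSF1R passed as higher. CD14, the brightest of the 5 by mean level, went the other way. It gave -0.81 ± 0.26 (SE, limma adjusted p = 0.103) and was lower in HZ in 5 of 6 pairs. CD68 gave 0.14 ± 0.14 (SE). The summed signal of the 5 overlapped between zones, at 1249 to 2346 in HZ and 945 to 1956 in RZ. When each pair was dropped in turn, C1QB passed 6 times, C1QA 4 times and CSF1R 1 time. Among 5 perichondrial fibroblast markers FBN1 passed as lower, with sums of 2801 to 5432 in HZ and 4023 to 18927 in RZ. PECAM1 passed as lower among 4 endothelial markers, which summed to 151 to 422 in HZ and 388 to 623 in RZ. With a pair left out PECAM1 passed 1 time in 6, and VWF, CDH5 and KDR did not pass, at 0.11, -0.11 and -0.03. None of 3 red blood cell markers passed. Of 3 osteoblast markers DMP1 passed as higher, in 5 of 6 pairs, and with a pair left out it passed 1 time in 6. BGLAP went the other way at -0.99 ± 0.46 and IBSP gave 0.14 ± 0.17 (SE, limma adjusted p = 0.242 and 0.715). The summed osteoblast signal was 9959.5 to 14495 in HZ and 8174 to 13478 in RZ, most of it from IBSP. Since signals are not comparable between probe sets, these sums give no share of cells. The part of these cells in the collagen values was not tested.

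Among the collagens of the cartilage fibril, 1 probe set of 16 passed, a COL11A1 probe set that was higher in HZ, and 0 passed as lower. This share lies near the 6.22% found over all probe sets. An unadjusted p under 0.05 was reached by 5 of the 16, against 22.2% of all probe sets. The sign was the same in all 6 pairs for 4 of 16, against 14.0% of all. HZ was higher in all 6 pairs for 3 of these, against 6.85% of all, and lower for 1, against 7.15%. In 0 of 16 were the signals of the zones fully apart, a state reached by 2.89% of all. The log2 difference was above 0 in 13 and below 0 in 3, with a median of 0.18 beside -0.01 over all probe sets. The members of 1 gene share its transcript and are not independent.

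**Figure D1:**
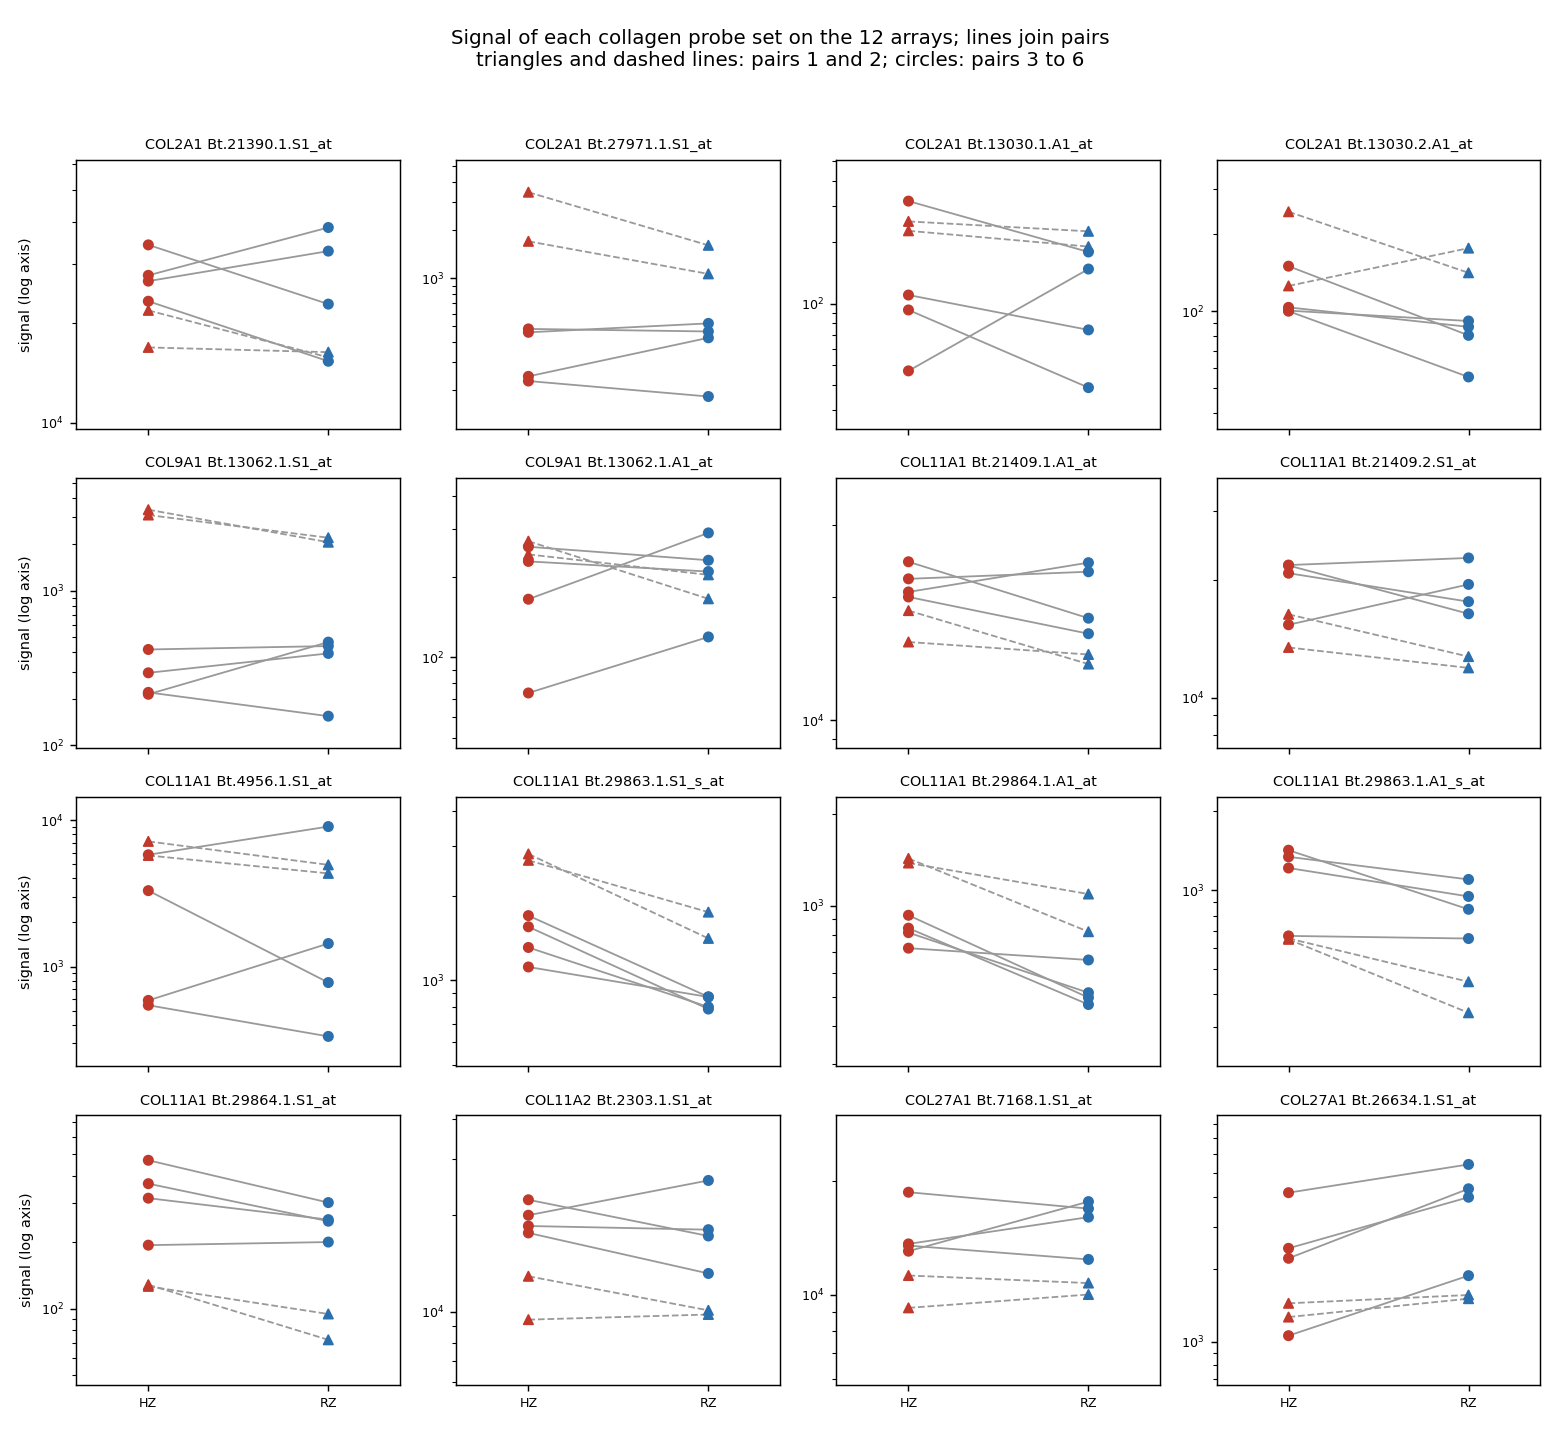
Signal (log axis) of the 16 collagen probe sets on the HZ arrays (left, red) and the RZ arrays (right, blue), with a line for each of the 6 pairs. The zones overlap in every panel, while for COL9A1 Bt.13062.1.S1_at the arrays of pairs 1 and 2 (triangles, 2059 to 3341) stand apart from those of pairs 3 to 6 (circles, 155 to 466).

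**Figure D2:**
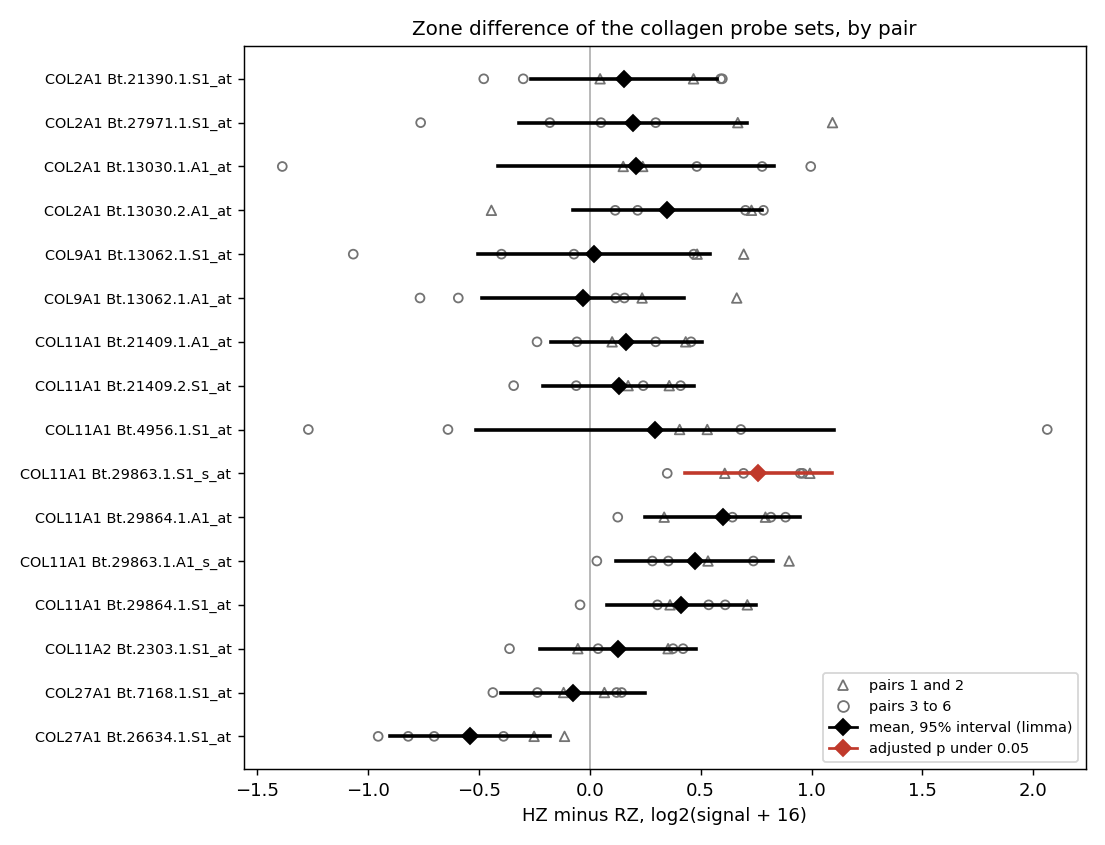
HZ minus RZ on the log2(signal + 16) scale for each collagen probe set, with the 6 pairs as open symbols and the mean with its 95% interval from limma as diamonds and bars. COL11A1 Bt.29863.1.S1_s_at, at 0.76, is the probe set that passed, and COL27A1 Bt.26634.1.S1_at is below 0 in all pairs.

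COL2A1, the chain of collagen II, gave the brightest probe set of the whole table, Bt.21390.1.S1_at, which ranked 1 by mean level and was the brightest on 9 of the 12 arrays. Its signal ran from 16838 over a median of 24908 to 34227 in HZ, and from 15306 over a median of 19510.5 to 38598 in RZ. The highest and the lowest value both belonged to RZ, so the zones overlapped fully. On average HZ had 25060.2 ± 5927 and RZ 23572 ± 9942 (SD, n = 6). The log2 difference was 0.15 ± 0.19 (SE, limma adjusted p = 0.698), with a 95% interval of -0.27 to 0.57. HZ was the higher zone in 4 of 6 pairs, with 0.26 for pairs 1 and 2 alone and 0.10 for the others.

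The other COL2A1 probe sets were far dimmer and did not pass either. Bt.27971.1.S1_at had signals of 228 to 3449 in HZ (median 471) and 183 to 1607 in RZ (median 494). Its log2 difference was 0.20 ± 0.23 (SE, limma adjusted p = 0.686). Taken apart, pairs 1 and 2 gave 0.88 and pairs 3 to 6 gave -0.15. The term for that gap between batches, 1.03, had an unadjusted p of 0.0244 in limma and an adjusted p of 0.934, and 5.02% of all probe sets had an unadjusted p under 0.05 for it. Among the collagens 1 probe set of 16 did so and 0 passed after adjustment, against 0.00833% of all. Bt.13030.1.A1_at gave 47 to 319 in HZ (median 169) and 39 to 226 in RZ (median 163), with a log2 difference of 0.21 ± 0.28 (SE). Bt.13030.2.A1_at gave 100.1 to 245 in HZ (median 115) and 55 to 176 in RZ (median 89), with 0.35 ± 0.19 (SE). Both were higher in HZ in 5 of 6 pairs (limma adjusted p = 0.726 and 0.318).

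Whether the bright COL2A1 probe set moved differently from the dim ones was tested on the differences within pairs. Its zone difference was below that of the dimmer 3 by 0.04 to 0.20 on the log2 scale, in each case less than the SE of that mean over pairs (0.26 to 0.36). The exact sign-flip test, two-sided, gave adjusted p = 0.917 to 0.938 over 11 such tests in all genes. With 6 pairs its smallest possible p is 0.03125, and 7 of 11 tests would have to reach it for any to pass.

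COL9A1, a chain of collagen IX, did not pass at either probe set, and one of them had a wide gap in level between batches. Bt.13062.1.S1_at had signals of 214 to 3341 in HZ (median 356) and 155 to 2201 in RZ (median 452). The 4 arrays of pairs 1 and 2 ran from 2059 to 3341 and the 8 arrays of pairs 3 to 6 from 155 to 466. A gap of this kind, with all arrays of pairs 1 and 2 above the others and a mean log2 level higher by 8-fold or more, was found in 0.0167% of all probe sets, 4 in number. This probe set is among those 4 and lies just above the limit, at 8.20-fold. Neither this limit nor the 4-fold one below was planned, so these shares are descriptions. On the log2 scale the level was 3.04 higher in pairs 1 and 2. Among the collagens 2 of 16 were apart between batches by 4-fold or more, this one and Bt.27971.1.S1_at of COL2A1, against 0.325% of all. With no limit on size 5 of 16 were apart, against 4.53% of all. The zone difference was 0.02 ± 0.23 (SE, limma adjusted p = 0.976). It was 0.59 within pairs 1 and 2 and -0.27 within the others, where pair 6 alone was above 0, at 0.47.

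The other COL9A1 probe set, Bt.13062.1.A1_at, did not share that gap, with a level 0.22 higher on the log2 scale in pairs 1 and 2. It gave 74 to 271 in HZ (median 235) and 119 to 291 in RZ (median 206), with a zone difference of -0.03 ± 0.20 (SE, limma adjusted p = 0.956). Pairs 1 and 2 gave 0.45 and the others -0.27. The terms for a gap between batches were 0.86 ± 0.44 for the brighter and 0.72 ± 0.39 for the dimmer probe set (SE) and did not pass (limma adjusted p = 0.9995 for each). The zone differences of the pair of probe sets differed by 0.05 ± 0.24 (SE, exact sign-flip p = 0.875, adjusted p = 0.938). Their names differ only in the letters S and A, which in this naming scheme mark the sense or antisense orientation of 1 design sequence. Which strand the labelled copies matched is not given in the sources used here.

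COL11A1, a chain of collagen XI, was higher in HZ at all 7 of its probe sets by the sign of the mean, and 1 of them passed. That one, Bt.29863.1.S1_s_at, had signals of 1114 to 2816 in HZ (median 1623) and 788 to 1746 in RZ (median 871). HZ was above RZ in 6 of 6 pairs, although the ranges overlapped, with pairs 1 and 2 higher on average in both zones. On average HZ had 1859 ± 716 and RZ 1081 ± 400.4 (SD, n = 6), and the fitted rise was 1.69-fold. The log2 difference was 0.76 ± 0.15 (SE, limma adjusted p = 0.0189), and both batches gave nearly as much, 0.80 and 0.74. The suffix _s marks probes that match more than 1 transcript sequence, so a related transcript may share this signal.

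This call was near the threshold. It held in 8 of 18 alternative settings, and the adjusted p ran from 0.00242 with only the probe sets above the median level tested to 0.380 with pairs 1 and 2 alone. It was lost without pair 1, 5 or 6 (0.0649, 0.0692 and 0.0569), without the pair as a block (0.161) and with 1 instead of 16 added (0.0542), although the difference stayed between 0.71 and 0.88. The ratio of signals at the 3′ and 5′ ends of actin, a sign of RNA integrity, was higher in HZ in 6 of 6 pairs, at 2.79 ± 0.59 in HZ and 2.10 ± 0.40 in RZ (log2, SD, n = 6). The same ratio for GAPDH was 0.52 ± 0.65 in HZ and 0.10 ± 0.28 in RZ, higher in HZ in 5 of 6 pairs. For EF1A it went the other way, with -2.49 ± 0.39 in HZ and -2.26 ± 0.29 in RZ, higher in HZ in 1 of 6 pairs. With pairs 3 and 4 left out, whose HZ arrays had the highest such ratio for GAPDH, the COL11A1 difference was 0.88 (adjusted p = 0.0627). That fit kept pair 1, where the actin ratio was 3.07 in HZ and 1.63 in RZ and the COL11A1 difference was 0.99. The part of RNA integrity in the COL11A1 difference was not tested.

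The next 3 COL11A1 probe sets by level had smaller differences in the same direction and did not pass. Bt.29864.1.A1_at had signals of 723 to 1431 in HZ (median 885) and 471 to 1092 in RZ (median 588), and was higher in HZ in 6 of 6 pairs. Its log2 difference was 0.60 ± 0.16 (SE, limma adjusted p = 0.0525). This adjusted p is just above 0.05, and the probe set passed in 4 of 18 alternatives, among them quantile normalization (0.0268). Bt.29863.1.A1_s_at gave 649 to 1421 in HZ (median 942) and 341 to 1099 in RZ (median 750), a difference of 0.47 ± 0.16 (SE, adjusted p = 0.112), again with HZ above RZ in 6 of 6 pairs. Bt.29864.1.S1_at, the dimmest, gave 126 to 470.2 in HZ (median 255) and 72 to 302 in RZ (median 225), 0.41 ± 0.15 (SE, adjusted p = 0.141), in 5 of 6 pairs.

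These probe sets form couples with 1 design sequence in opposite orientations, and the partners went opposite ways between batches. Bt.29863.1.S1_s_at and Bt.29864.1.A1_at, the brighter partners, were higher in pairs 1 and 2 by 0.93 and 0.79 on the log2 scale. Bt.29863.1.A1_s_at and Bt.29864.1.S1_at, the dimmer ones, were lower there, at -0.94 and -1.33. Over the 407 such couples of the array, the brighter partner was higher and the dimmer one lower in pairs 1 and 2 in 26.5%. In spite of these shifts in level, the zone difference within each batch was above 0 for all 4, at 0.54 to 0.80 in pairs 1 and 2 and 0.35 to 0.74 in pairs 3 to 6.

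The brightest COL11A1 probe sets gave small differences. Bt.21409.1.A1_at, at rank 11 of all probe sets, had signals of 15515 to 24353 in HZ (median 20270.2) and 13705 to 24229 in RZ (median 16995). Its log2 difference was 0.17 ± 0.15 (SE, limma adjusted p = 0.585, 95% interval -0.17 to 0.51), above 0 in 4 of 6 pairs. Bt.21409.2.S1_at, at rank 24, had signals of 13431 to 21816 in HZ (median 18559) and 11907 to 22750.1 in RZ (median 16982), and gave 0.13 ± 0.15 (SE, adjusted p = 0.685).

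Bt.4956.1.S1_at varied most from array to array. It ran from 544 to 7156 in HZ (median 4519) and from 333 to 9038 in RZ (median 2882). The arrays of pairs 1 and 2 lay between 4327 and 7156, while those of pairs 3 to 6 spread from 333 to 9038 with both zones among the low and the high. The difference within pairs ran from -1.27 in pair 3 to 2.06 in pair 5, with a mean of 0.30 ± 0.36 (SE, limma adjusted p = 0.699).

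The brightest COL11A1 probe set was set against the other 6 within pairs. Its zone difference lay below those of Bt.29863.1.S1_s_at, Bt.29864.1.A1_at and Bt.29864.1.S1_at in 6 of 6 pairs, by 0.59 ± 0.13, 0.43 ± 0.14 and 0.25 ± 0.09 (SE). Below that of Bt.29863.1.A1_s_at it lay in 5 of 6 pairs, by 0.31 ± 0.09 (SE). The first 3 reached the smallest p that the exact sign-flip test allows, 0.03125, and failed the correction over 11 tests (adjusted p = 0.115). Against Bt.21409.2.S1_at the gap was 0.04 ± 0.17 (SE, exact sign-flip p = 0.844).

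**Figure D3:**
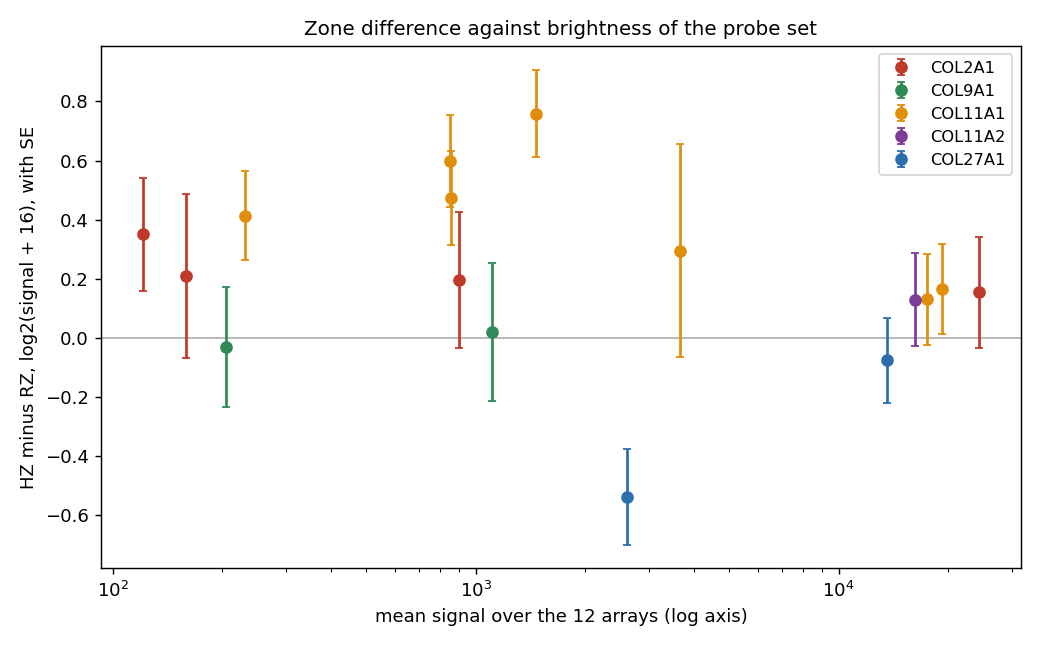
HZ minus RZ on the log2(signal + 16) scale, with its SE from limma, against the mean signal of each collagen probe set over 12 arrays (log axis). The 5 probe sets with the highest signals lie between -0.08 and 0.17, while those of COL11A1 with dimmer signals reach 0.76 and the dimmer one of COL27A1 lies at -0.54.

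COL11A2, the second chain of collagen XI, had 1 probe set, Bt.2303.1.S1_at, at rank 56. Its signals were 9435 to 22380.2 in HZ (median 18077) and 9789 to 25725 in RZ (median 15201), and the zones overlapped over nearly their whole range. The log2 difference was 0.13 ± 0.16 (SE, limma adjusted p = 0.698), at 0.15 in the first batch and 0.12 in the second. The chains that build collagen XI differed at their brightest probe sets by less than the SE of the mean difference over pairs. The zone difference of COL11A1 was 0.04 ± 0.05 above that of COL11A2, that of COL2A1 was 0.03 ± 0.09 above COL11A2, and COL2A1 minus COL11A1 was -0.01 ± 0.09 (SE, n = 6 pairs). In these 3 exact sign-flip tests each adjusted p was 0.938. All 3 probe sets are among the 100 brightest of the array.

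COL27A1, the chain of collagen XXVII, had a bright and a dimmer probe set, both lower in HZ by the sign of the mean. Bt.26634.1.S1_at had signals of 1061 to 4157 in HZ (median 1833) and 1510 to 5445 in RZ (median 2931). RZ was the higher zone in 6 of 6 pairs, yet the ranges overlapped, since the pairs differed in level. On average HZ had 2099 ± 1146 and RZ 3116 ± 1680.4 (SD, n = 6). The log2 difference was -0.54 ± 0.16 (SE, 95% interval -0.90 to -0.18) and did not pass (limma adjusted p = 0.0828). Both batches had this sign, at -0.18 and -0.71, a gap of 0.53 (adjusted p = 0.9995). It passed in 3 of 18 alternatives, with 64 added, with probe sets above the median level alone and with a variance trend (0.0355, 0.0246 and 0.0334).

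The bright COL27A1 probe set, Bt.7168.1.S1_at at rank 90, had signals of 9237 to 18713 in HZ (median 13283) and 10021 to 17672 in RZ (median 14243). Its log2 difference was -0.08 ± 0.14 (SE, limma adjusted p = 0.819), with HZ higher in 3 of 6 pairs. It exceeded that of the dimmer probe set in 5 of 6 pairs, by 0.46 ± 0.18 (SE, exact sign-flip p = 0.0625, adjusted p = 0.138).

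Of the 16 probe sets 5 were among the 100 brightest of the array, where few probe sets passed at all. Of those 100, 2 passed, beside 8.25% of the 400 that follow in rank, 12.2% of the 1500 after those, 10.3% of the next 4000 and 6.22% of all. Before scaling, an array's highest signal lay between 8414 and 9328 in pairs 1 and 2, but between 26129.8 and 52895 in pairs 3 to 6. It was 1.20 to 1.41 times the signal of the probe set ranked 50 in the first batch and 1.35 to 2.02 times in the second. Unscaled COL2A1 signals at the brightest probe set reached 8028 to 9328 in the first batch, against 22623 to 52895 in the second. Whether these probe sets were saturated was not tested.

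Of the 5 bright collagen probe sets, those of COL2A1 and COL11A2 and the brightest of COL11A1 had the sign of the bright end of their arrays in 5 of 6 pairs each. The bright COL27A1 probe set had it in 4 of 6 and the second COL11A1 probe set in 3 of 6. The median zone difference of the 100 brightest probe sets was 0.23, -0.03, 0.49, -0.03, 0.41 and -0.33 in pairs 1 to 6. The brightest COL2A1 probe set gave 0.47, 0.05, 0.59, -0.30, 0.60 and -0.48 in the same pairs. COL11A2 gave 0.35, -0.05, 0.38, 0.04, 0.42 and -0.36. HZ was the higher zone in pairs 1, 3 and 5 and the lower one in pair 6 in each of these 3 series. After the median of the 100 was taken off in each pair, an alternative added once the values had been seen, COL2A1 was at 0.03 ± 0.08, COL11A2 at 0.01 ± 0.03 and the brightest COL11A1 probe set at 0.04 ± 0.05 (SE, n = 6 pairs). The bright COL27A1 probe set gave -0.12, 0.07, 0.14, -0.24, 0.12 and -0.44 in pairs 1 to 6, opposite in sign to the bright end in pairs 1 and 2. Relative to that median it was at -0.20 ± 0.07 (SE), below 0 in 5 of 6 pairs. Bt.21409.2.S1_at of COL11A1, at 0.01 ± 0.19 (SE), was opposite to the bright end in pair 2 at 0.17, in pair 3 at -0.34 and in pair 6 at 0.24.

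**Figure D4:**
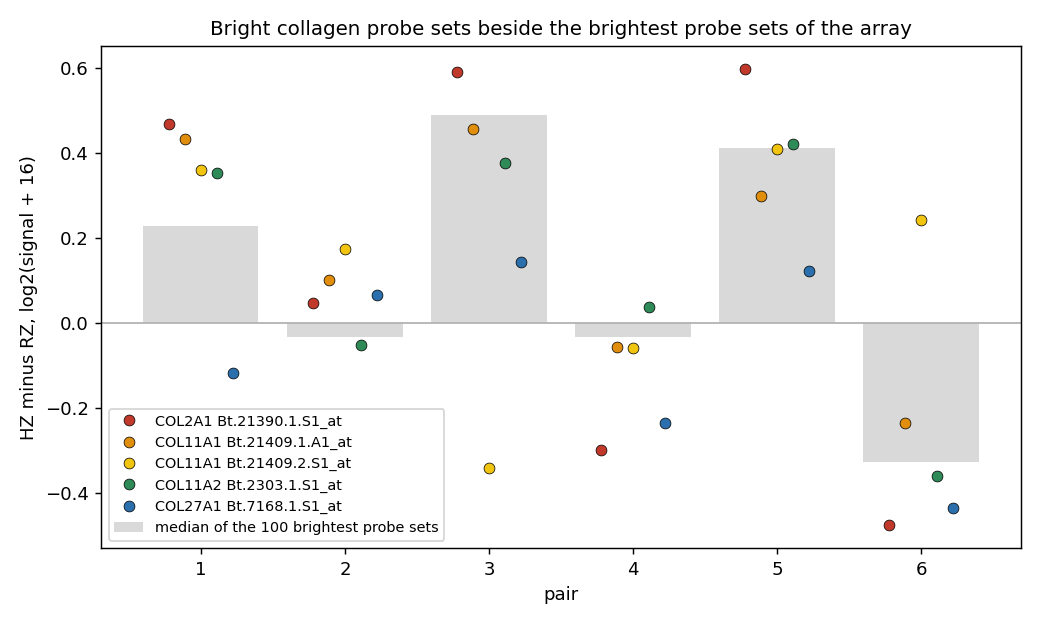
HZ minus RZ on the log2(signal + 16) scale in pairs 1 to 6 for the 5 collagen probe sets among the 100 brightest (points), and the median of those 100 (grey bars). COL2A1 and COL11A2 lie above 0 in pairs 1, 3 and 5 and below 0 in pair 6, as the bars do.

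For 3 of the 5 collagen genes the genes most alike in pattern were among the 100 brightest. Likeness was Pearson's r of log2(signal + 16) over the 12 arrays, with 6249 other named genes above the median level. It is a description, since points share arrays and scaling. For COL2A1 they were FTH1, a ferritin chain (r = 0.99), and SPARC, a matrix protein (0.98), at ranks 21 and 2. For COL11A1 they were CCN2, a matricellular growth regulator (0.99), and CDK5R1 (0.99), at ranks 4 and 7. For COL11A2 they were ACAN, the core protein of aggrecan (0.98), and INHBA, an activin subunit (0.97), at ranks 33 and 32. COL27A1 was most like ANXA8L1 (0.93) and CRISPLD2 (0.90), at ranks 12 and 209. COL9A1, by Bt.13062.1.S1_at, was most like PLAGL1 (0.94) and ASNSD1 (0.93), which lay further down at ranks 707 and 2941. None of these 10 genes passed between the zones. Among the collagens themselves r was 0.96 between COL2A1 and COL11A1 and 0.93 between COL11A1 and COL11A2. For COL9A1 against the other 4 it was -0.74 to -0.92. These values contain the gap in level between batches, since Bt.13062.1.S1_at was 3.04 higher on the log2 scale in pairs 1 and 2, where the brightest COL2A1 and COL11A2 probe sets stood at -0.61 and -0.84 relative to pairs 3 to 6.

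Partners of these collagens in the matrix mostly did not pass, beside 6.22% of all probe sets that did. Each gene is given by its brightest probe set. Of 10 measured proteins of the fibril surface, MATN1, a matrilin that binds the fibril, fell by 0.84 ± 0.20 (SE, limma adjusted p = 0.0404) and 9 did not pass, with a median of -0.36 beside -0.01 over all probe sets. MATN1 was dim, at rank 12960 with 55 in HZ and 116 in RZ on average, and with a pair left out it passed 1 time in 6. COMP, which binds collagens II and IX, gave -0.04 ± 0.17. Of 7 measured genes of aggrecan and other matrix, VIT, which encodes vitrin, fell by 1.12 ± 0.22 (SE, adjusted p = 0.0198) and 6 did not pass (median 0.01). ACAN gave 0.13 ± 0.15, HAPLN1, the link protein, 0.07 ± 0.14, and CNMD, chondromodulin, 0.04 ± 0.16. Of the SOX trio with its cofactors and other cartilage regulators 5 were measured and 0 passed in limma (median -0.07), with 2 at an unadjusted p under 0.05. SOX9, SOX5 and SOX6 were not analysed here.

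Among receptors, processing enzymes and proteases of collagen II, members of each list passed. ITGA10, the collagen-binding integrin subunit of chondrocytes, fell by 1.06 ± 0.23 (SE, limma adjusted p = 0.0260), at 584 in HZ and 1157 in RZ on average, and the other 2 measured did not pass, with ITGB1 at 0.29 ± 0.15 (median of the 3 genes 0.26). Leaving out a pair, ITGA10 and VIT each passed 2 times in 6, MMP2 3 times and P3H1 2 times. Of 19 measured genes of procollagen processing and cross-linking, LOX, LOXL4 and P3H2 rose and SERPINH1, P4HA3 and P3H1 fell, with 13 not passing (median -0.33). SERPINH1, the chaperone of procollagen, fell by 1.11 ± 0.14 (SE, adjusted p = 0.00414). LOXL4, a cross-linking enzyme at rank 57, rose by 0.72 ± 0.13 (SE, adjusted p = 0.0154) and stood next to COL11A2 in the order of signals. LOX, the first enzyme of cross-linking, rose by 3.18 ± 0.27 (SE, adjusted p = 0.000708), in 6 of 6 pairs and with all HZ arrays above all RZ arrays. Of the prolyl hydroxylase genes, P3H2 rose by 0.93 ± 0.15, while P4HA3 and P3H1 fell by 0.93 ± 0.17 and 0.82 ± 0.17 (SE). PCOLCE, which speeds removal of the propeptide, gave -0.03 ± 0.23.

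Of 6 measured proteases that cut collagen II or its fragments, MMP13 and CTSK rose by 2.04 ± 0.23 and 1.46 ± 0.21, MMP2 fell by 1.66 ± 0.33 (SE) and 3 did not pass (median 0.54). MMP14 gave 0.12 ± 0.31. Of 5 measured fibrillar collagens of other tissues 0 passed in limma (median -0.14), with 2 at an unadjusted p under 0.05. COL1A1 and COL1A2, the chains of collagen I of bone and perichondrium, gave -1.05 ± 0.34 and -1.12 ± 0.29 (SE, limma adjusted p = 0.105 and 0.0515), and COL3A1 gave -0.14 ± 0.19. Over all 55 genes of these lists 5 rose and 7 fell, beside 3.26% and 2.96% of all probe sets. These shares are over all probe sets, while each listed gene is counted once by its brightest.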

How the data were processed

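Labelled cRNA was hybridised to 12 arrays of 1 colour, per the labels' protocols. No source used here names the scanner software, the probe set summary or the normalization. The authors deposited linear ratios for 24128 probe sets, of which 112 are controls. From the values, 90.8% are ratios to the probe set's own median over arrays and the rest are ratios to a fixed value. Signals were recovered from the steps in which the ratios fall (within 0.08 of a whole step), taking a step as 0.1 units, which no source states, and the scaling was kept. The recovery and the fit were also run on simulated data, and the outcome is not given here. For the fit the simulated noise was drawn independently for each array.

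The zone comparison used limma 3.58.1 (R 4.3.3) on log2(signal + 16), the pair being a fixed block. The series description names pairs, and deviations from the zone means correlated within each of the 6 (r = 0.124 to 0.447). Arrays of different pairs were not compared in this way. These correlations also contain the gap in level between batches, so they cannot show the pairing by themselves. Probe sets and chains were compared by exact sign-flip tests. Symbols came from the platform annotation, 13263 probe sets matching RefSeq (ARS-UCD2.0) by Entrez identifier, while 10638 without a symbol stay unnamed. No sequences or coordinates are given. Named genes were all collagen probe sets, the first 3 of each list and those that passed, and the 2 most alike in pattern. The members and lists were chosen with earlier results of these data known. Alternatives were the added constant, the deposited ratio, quantile and median scaling, a level filter, the handling of pairs, a variance trend and left-out pairs. Precision is limited by the number of arrays.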

Additional observations from a re-analysis of the deposited data

Results flagged for a closer look

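For COL2A1 Bt.13030.1.A1_at, pair 6 stood far from the other 5 pairs, at -1.39 (HZ minus RZ of log2(signal + 16)), while the others ran from 0.15 to 0.996. The signals of pair 6 were 47 in HZ and 148 in RZ. Chance flags about 1 in 20 such groups, and 16 sets of pairs and 32 sets of arrays of a zone were examined.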

How the results depend on the processing

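Over all probe sets 782 were higher and 712 lower in HZ, and of the collagens 1 and 0. With 1 added these became 368 and 215, and 0 collagens were higher. With 64 added 1120 were lower, and 3 collagens were higher and 1 lower. The deposited ratio gave 315 and 163, and 0 collagens higher. Quantile normalization gave 2 collagens higher. With probe sets above the median level alone, 1374 were lower, with 3 collagens higher and 1 lower. A variance trend gave 1075 lower, with 3 collagens higher and 1 lower. Without the pair as a block, 505 were higher and 326 lower, with 0 collagens higher, and with the pair as a random block 0 collagens were higher. Leaving out pairs 3 and 4 gave 91 and 48, pairs 3 to 6 alone 258 and 78, and pairs 1 and 2 alone 0 and 0 in limma (2930 at an unadjusted p under 0.05, 3 of them collagens), each with 0 collagens higher. Leaving out 1 pair gave 334 to 650 higher and 223 to 895 lower, with 0 to 1 collagens higher and 0 to 0 lower. Fewer arrays were fitted where pairs were left out; otherwise the cause was not tested.

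Of the 55 genes of the related lists 5 were higher and 7 lower. The lower ones became 2 with 1 added, 12 with 64 added, 1 with the deposited ratio, 11 above the median level and 4 without the pair block. Leaving out pairs 3 and 4 gave 2 higher and 0 lower, pairs 1 and 2 alone 0 and 0, and pairs 3 to 6 alone 3 and 1. Leaving out 1 pair gave 4 to 5 higher and 1 to 8 lower.

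Signs turned for small differences. COL9A1 Bt.13062.1.A1_at became 0.015 by quantile normalization, 0.11 without pairs 3 and 4 and 0.45 in pairs 1 and 2 alone. In pairs 3 to 6 alone, COL2A1 Bt.27971.1.S1_at was -0.15 and COL9A1 Bt.13062.1.S1_at was -0.27. COL2A1 minus COL11A1 was 0.013 by quantile normalization, which gives the brightest probe set of every array the same value. The COL2A1 zone difference was thereby 0 in pairs 1, 3, 4 and 6, so that setting cannot show how COL2A1 differed there. Leaving out 1 pair, COL9A1 ran from -0.12 to 0.24 (Bt.13062.1.S1_at) and -0.17 to 0.12 (Bt.13062.1.A1_at), their difference from -0.15 to 0.17, and COL11A1 Bt.4956.1.S1_at from -0.058 to 0.61. The brightest COL2A1 probe set minus Bt.27971.1.S1_at ran from -0.32 to 0.11 and minus Bt.13030.1.A1_at from -0.25 to 0.15. The brightest COL11A1 probe set minus Bt.21409.2.S1_at ran from -0.12 to 0.14 and minus Bt.4956.1.S1_at from -0.50 to 0.20. COL2A1 minus COL11A1 ran from -0.074 to 0.035, and COL2A1 minus COL11A2 from -0.012 to 0.10. The comparison planned between chains of collagen IX was not run, because only COL9A1 was analysed here.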

Other observations

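A pair of unnamed probe sets, Bt.13030.1.S1_at and Bt.13030.2.S1_at, differ from COL2A1 members only by the letter for orientation. Their levels were 2.52 and 2.89 higher on the log2 scale in pairs 1 and 2 than in pairs 3 to 6, and their zone differences were -0.44 ± 0.55 and -0.37 ± 0.57 (SE, limma adjusted p = 0.708 and 0.769). The probe sets that stood as far apart between batches as that of COL9A1 were Bt.13599.1.A1_at of COMP (5.16 on the log2 scale), the unnamed Bt.3311.1.S1_at (3.92) and Bt.25965.2.S1_at of NCOR1 (3.04), named here after their values were seen.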
